A study of Mus musculus with 4 samples.

Results

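The genes described here are 42 mouse genes of mitosis and chromosome segregation, given as a list of symbols and grouped below into 10 roles. All 42 were found among the 23283 gene symbols analysed, and all 42 passed the minimum of a mean of 1 FPKM over the 4 libraries, as 10973 symbols did. FPKM counts sequenced fragments per kilobase of transcript and per unit of depth. The RNA came from Th2 cells, the CD4 helper T cells that make IL-4, IL-5 and IL-13, grown from spleen CD4 T cells of C57BL/6 mice. Menin KO cells and wild-type (WT) cells were each sequenced after 5 days and after a longer culture that the labels name 3 weeks, with 1 library in each of the 4 groups. All 4 groups had a first culture of 5 days in medium holding 15 ng/ml of IL-2 plus 10 ng/ml of IL-4. The longer culture added 2 days of rest without cytokines and 5 days of renewed T cell receptor stimulation, where IL-2 was present and IL-4 was blocked by antibody, steps that do not fill 3 weeks. Menin, made by Men1, is a subunit of histone methyltransferase complexes of the Trithorax group. The sources used here do not give how it was deleted, in which cells, the age of the mice or whether spleens were pooled. With 1 library per group there is no test and no p-value, and no difference has a replicate check.

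Cells that divide make the proteins of mitosis in a pulse. Their genes are transcribed mainly in G2 and M phase under Foxm1 and B-Myb complexes, and are held off in resting cells by the DREAM complex, which reads promoter elements named CHR and CDE. Cdk1 with cyclin B starts mitosis, condensin compacts the chromosomes, the kinetochore ties them to spindle microtubules, and the spindle checkpoint holds back the anaphase-promoting complex until every chromosome is attached. A resting T cell has little of these RNAs, and an activated T cell has much, so in bulk RNA the genes are read as markers of proliferation. In such bulk samples, fewer cycling cells and less RNA per cycling cell cannot be told apart.

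Men1 stood at 10.3 FPKM in KO and 32.8 FPKM in WT cells at 5 days, and at 5.88 FPKM in KO and 25.4 FPKM in WT cells at 3 weeks. The KO libraries thus held 31.5% (28.6 to 34.6) and 23.1% (20.4 to 26.1) of the WT level, and both fit their labels. The ranges are exact Clopper-Pearson 95% intervals on the reads that the FPKM values imply, and like every interval given here they cover counting error only. Estimated depth was 22.5 M reads in KO and 20.7 M reads in WT at 5 days, and 21.6 M reads in KO and 23.6 M reads in WT at 3 weeks. The 42 mitosis genes rested on 369 to 39557 implied reads per gene and library. The T cell markers Cd3d, Cd3e, Cd3g and Cd4 lay between 142.6 and 1028 FPKM in all 4 libraries, and Gata3, the defining factor of Th2 cells, lay between 45.9 and 93.8 FPKM.

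Promoter sequences are shown for 6 members, because CHR elements and CCAAT boxes are the letters through which these genes are known to be controlled together. Ccnb1 and Top2a are among the members lowest in KO cells at 3 weeks, Ccnb2 and Cdc20 lie between the extremes, and Cenpa and Prc1 are at the high end. Each stretch runs from 120 bases before the RefSeq start of the gene to 25 bases after it, 5′ to 3′ on the strand of the gene, in the build GRCm38.p6. Capitals mark CCAAT (or ATTGG on the other strand), the CHR letters, which are TTTGAA or its variant with a C, TTCGAA (read TTCAAA where the first lies on the other strand), and the E2F letters listed further on.
Ccnb1, chr13:100786462-100786606, minus strand: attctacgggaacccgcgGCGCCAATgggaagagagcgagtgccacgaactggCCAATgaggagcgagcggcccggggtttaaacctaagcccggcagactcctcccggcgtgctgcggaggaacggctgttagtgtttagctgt
Top2a, chr11:99024165-99024309, minus strand: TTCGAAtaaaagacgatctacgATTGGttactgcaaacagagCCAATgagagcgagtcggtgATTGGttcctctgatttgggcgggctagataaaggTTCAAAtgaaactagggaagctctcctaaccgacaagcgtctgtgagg
Ccnb2, chr9:70421530-70421674, minus strand: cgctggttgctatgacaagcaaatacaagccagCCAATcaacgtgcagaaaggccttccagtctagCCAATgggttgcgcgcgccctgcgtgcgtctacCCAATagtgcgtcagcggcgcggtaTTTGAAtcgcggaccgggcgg
Cdc20, chr4:118437319-118437463, minus strand: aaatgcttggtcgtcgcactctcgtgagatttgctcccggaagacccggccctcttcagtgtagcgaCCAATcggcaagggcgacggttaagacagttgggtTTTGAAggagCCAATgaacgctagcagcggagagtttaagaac
Cenpa, chr5:30666766-30666910, plus strand: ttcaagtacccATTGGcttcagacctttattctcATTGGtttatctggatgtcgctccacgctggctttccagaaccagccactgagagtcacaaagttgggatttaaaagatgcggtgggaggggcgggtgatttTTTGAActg
Prc1, chr7:80294331-80294475, plus strand: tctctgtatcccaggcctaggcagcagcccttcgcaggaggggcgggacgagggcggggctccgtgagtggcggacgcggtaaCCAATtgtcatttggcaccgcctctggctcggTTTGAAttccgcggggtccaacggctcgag

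KO cells held less RNA of the mitosis genes than WT cells, by a little at 5 days and by much more at 3 weeks. Summed over the 42 genes, RNA stood at 2859 FPKM in KO and 3125 FPKM in WT cells at 5 days, and at 1464 FPKM in KO and 2538 FPKM in WT cells at 3 weeks. The KO sum was 91.5% of the WT sum at 5 days and 57.7% at 3 weeks. Of all FPKM in a library, the 42 genes took 0.603% in KO and 0.669% in WT at 5 days, and 0.306% in KO and 0.545% in WT at 3 weeks. The order of the 4 libraries was nearly fixed over the genes: 41 of 42 were lowest in the KO 3-week library, and 36 were highest in the WT 5-day library. In 31 genes the full order ran from WT 5 days, the highest, through KO 5 days and WT 3 weeks to KO 3 weeks. The shares of all compared genes with these orders were not computed, so the counts stand without a background.

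**Figure D1:**
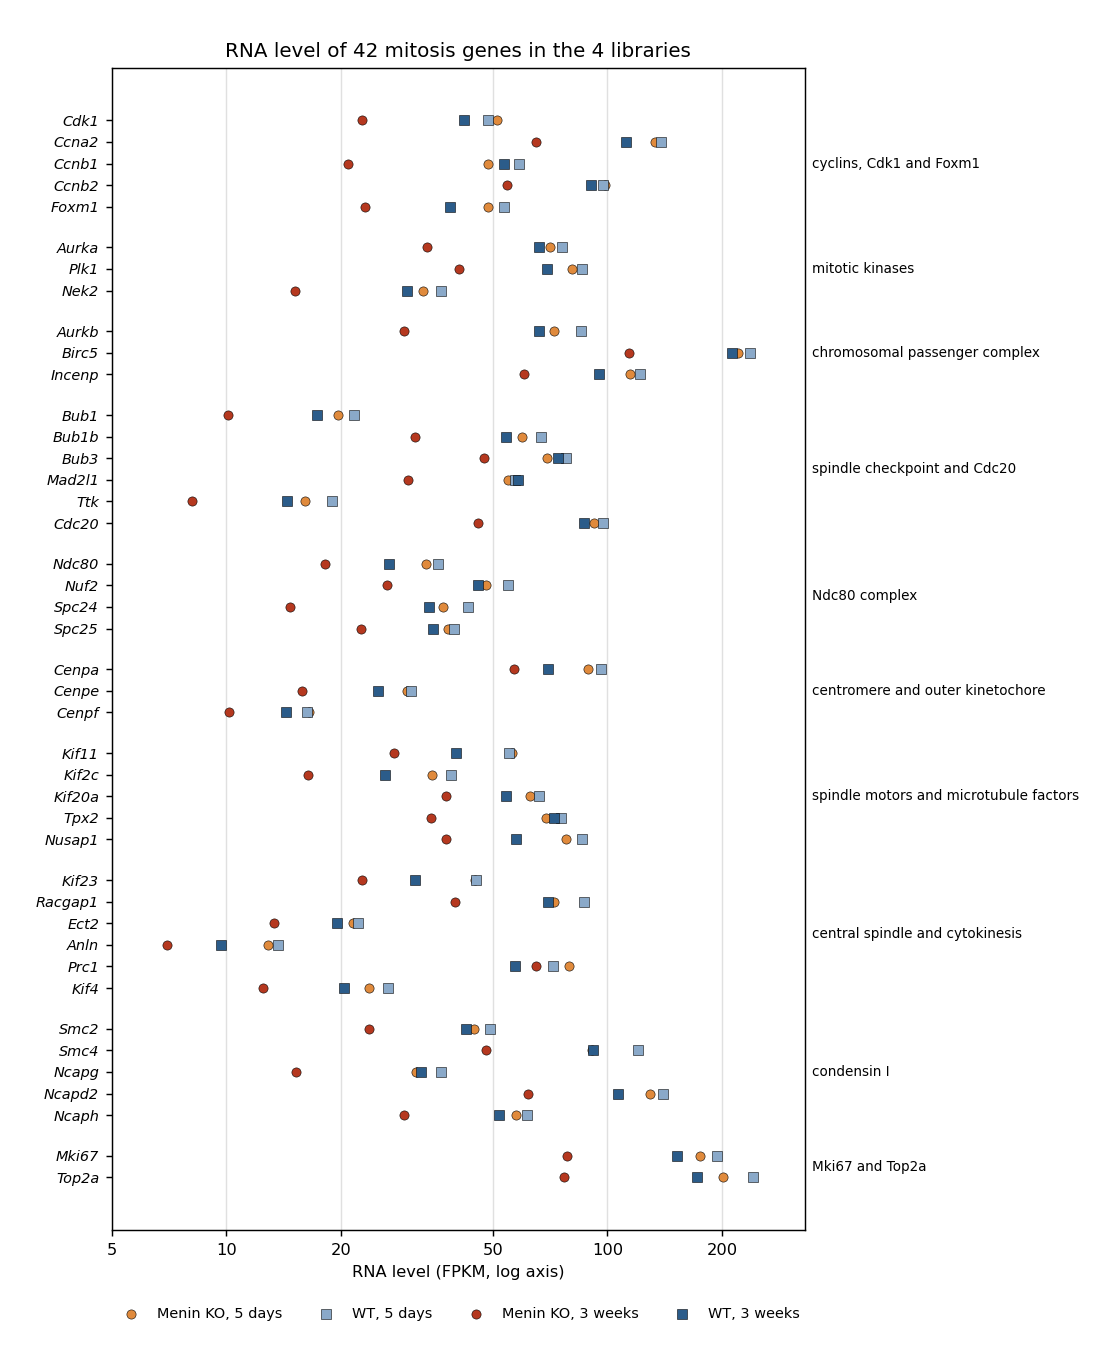
RNA level of each of the 42 mitosis genes (rows, grouped by role) in FPKM on a log axis, 1 point per library: circles are Menin KO, squares are WT, pale colours are 5 days and dark colours 3 weeks. The dark red circle of KO cells at 3 weeks is the leftmost point in 41 of the 42 rows, Prc1 being the exception.

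At 3 weeks, 41 of the 42 genes were lower in KO cells, with counting intervals below equality, and 1 gene, Prc1, was higher with an interval above it. The background share of compared genes below 0 was 55.8%. No background share was computed for the intervals, which cover counting error only. Ratios here are log2((KO + 1)/(WT + 1)) of FPKM, which makes differences of low genes look smaller. Their median was -0.76 over the mitosis genes, against -0.08 over all compared genes. At least 2-fold lower were 6 members, against a background of 8.19%, and at least 1.5-fold lower were 33 members, against 20.8%. No member was at least 2-fold higher, where the background was 7.97%. The difference was therefore moderate in size and shared by nearly all the genes: KO cells held 58.3% of the WT level in the median, 19 genes lay between 50 and 60%, and 12 lay between 60 and 70%. A common set of 10 reference genes was also lower in KO cells, with 8 of 10 below 0 and a median of -0.46. Hprt was the lowest of them, at -1.22. The part of this set in the result was not tested. Just inside the 2-fold line stood Ncapg at -1.04, and just outside it Aurka at -0.95. With upper-quartile scaling Tpx2 and Ncapg were no longer past 2-fold, both at -0.92, which left 4 members; with a pseudocount of 5 there were 3.

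At 5 days the genotypes were close. Of the 42 genes, 37 were lower in KO cells, against a background of 53.6%, but none was 2-fold lower (background 0.82%), none 2-fold higher (background 2.77%) and none 1.5-fold lower (background 2.71%). The median ratio was -0.12. The 10 reference genes lay slightly lower, at a median of -0.17 with 8 of 10 below 0. KO cells held between 75.6% (Smc4) and 110.2% (Prc1) of the WT level, with a median of 92.1%. Counting intervals lay below equality for 31 genes, above it for Cdk1 and Prc1, and included it for 9. Intervals were not computed for all compared genes, so these counts have no background share. Members below 0 at both times numbered 37, where 42.8% of compared genes were. The genotype contrasts at the 2 times share no library, and over the 42 genes their log2 ratios had a Pearson r of 0.62, or 0.52 without Prc1. That r is a description over genes, which are not independent of each other.

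**Figure D2:**
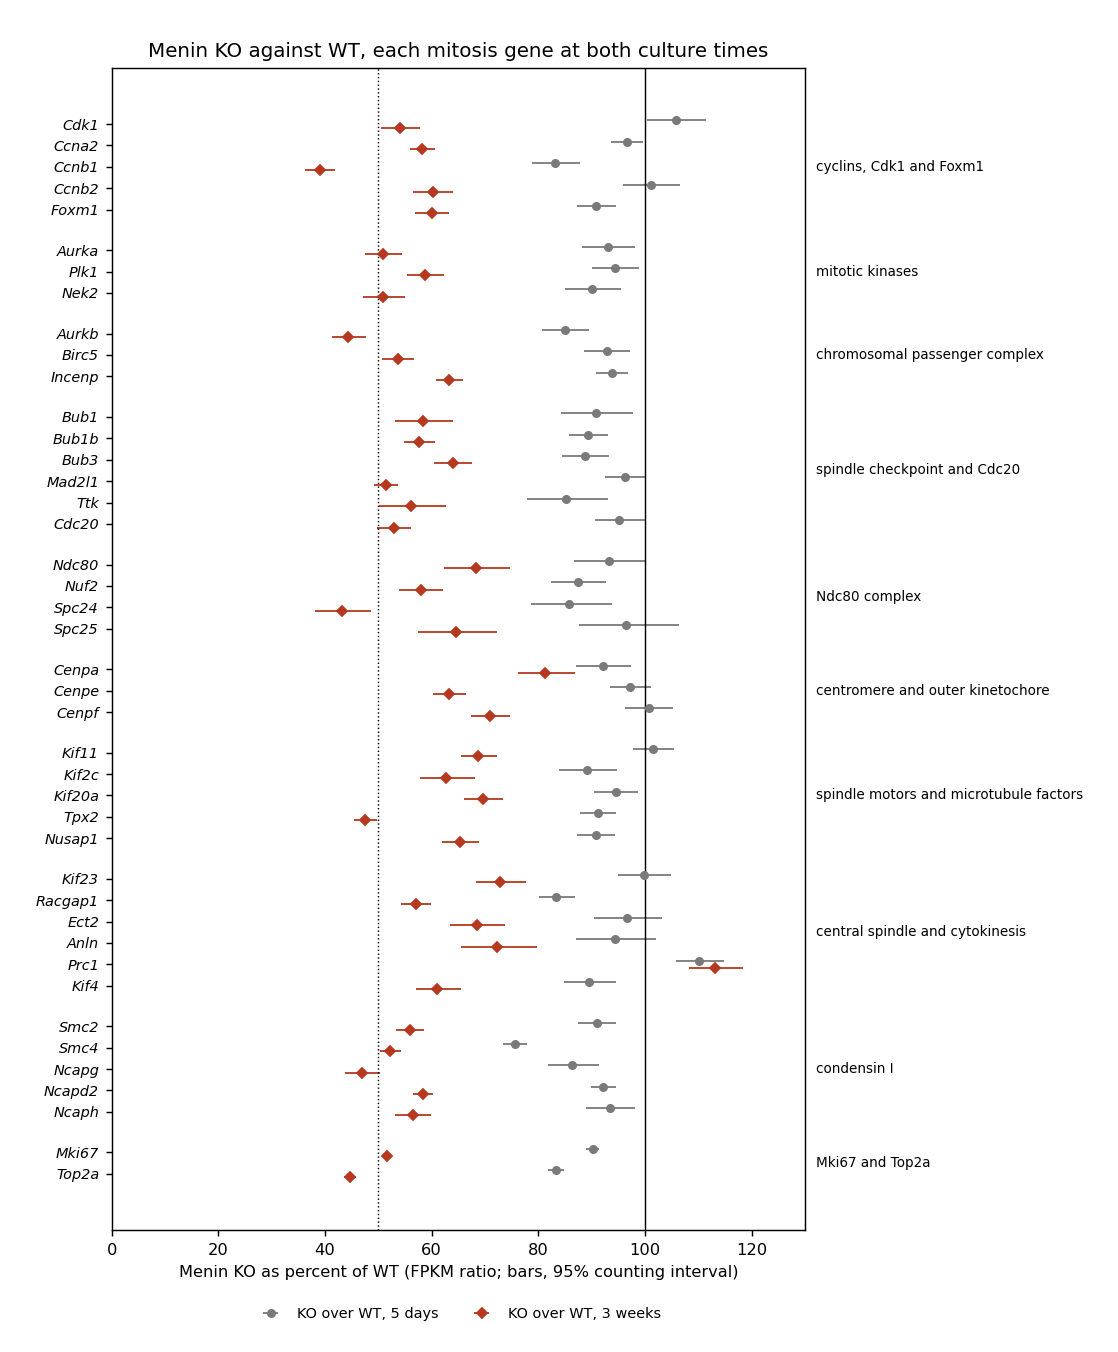
KO level as a percent of the WT level for each gene, with the exact 95% counting interval as a bar, at 5 days (grey circles) and 3 weeks (red diamonds); the solid line marks 100% and the dotted line 50%. The 3-week diamonds run from 39.0% (Ccnb1) to 113% (Prc1), and the 5-day circles from 75.6% (Smc4) to 110.2% (Prc1).

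The cyclins, Cdk1 and Foxm1 start mitosis. Cyclin B1, made by Ccnb1, is the partner of Cdk1 whose build-up triggers entry. Ccnb1 stood at 48.7 FPKM in KO and 58.6 FPKM in WT cells at 5 days, and at 20.8 FPKM in KO and 53.4 FPKM in WT cells at 3 weeks. It was the lowest of all 42 in KO cells at 3 weeks, at 39.0% (36.2 to 41.8) of the WT level and a log2 ratio of -1.32. Its sister cyclin Ccnb2 behaved differently in size. Ccnb2 stood at 98.4 FPKM in KO and 97.3 FPKM in WT cells at 5 days, and at 54.6 FPKM in KO and 90.7 FPKM in WT cells at 3 weeks, or 60.2% (56.5 to 64.0). The intervals of the B cyclins at 3 weeks do not overlap. A pseudogene of each is annotated (Ccnb1-ps and Ccnb2-ps), and the sources used here do not say how reads shared with them were counted.

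Cdk1, the kinase that drives mitotic entry, was 1 of 5 genes above equality in KO cells at 5 days, with 51.3 FPKM in KO and 48.5 FPKM in WT. At 3 weeks it stood at 22.7 FPKM in KO and 41.98 FPKM in WT cells. Its ratio was thus 0.08 at 5 days and -0.86 at 3 weeks. Ccna2, whose cyclin A2 works in S phase and at mitotic entry, had 134 FPKM in KO and 138 FPKM in WT cells at 5 days, and 65.0 FPKM in KO and 112 FPKM in WT cells at 3 weeks. Foxm1, the transcription factor that drives many of the other genes here, had 48.6 FPKM in KO and 53.5 FPKM in WT cells at 5 days, and 23.2 FPKM in KO and 38.6 FPKM in WT cells at 3 weeks. All 5 genes of this role were at least 1.5-fold lower in KO cells at 3 weeks (background 20.8%). Ccnb1 alone was 2-fold lower (background 8.19%).

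The 3 mitotic kinases grouped here had similar ratios at 3 weeks, with a median of -0.93. Aurka, the Aurora kinase of spindle poles, stood at 70.5 FPKM in KO and 75.8 FPKM in WT cells at 5 days, and at 33.7 FPKM in KO and 66.2 FPKM in WT cells at 3 weeks. Plk1, a kinase needed for entry, spindle assembly and cytokinesis, had 81.0 FPKM in KO and 85.9 FPKM in WT cells at 5 days, and 40.8 FPKM in KO and 69.4 FPKM in WT cells at 3 weeks. Nek2, which helps to part the centrosomes, had 15.1 FPKM in KO and 29.7 FPKM in WT cells at 3 weeks, a ratio of -0.93. All 3 were at least 1.5-fold lower in KO cells at 3 weeks (background 20.8%) and none was 2-fold lower (background 8.19%).

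The chromosomal passenger complex corrects wrong attachments at centromeres and later guides cytokinesis. Its kinase subunit Aurkb stood at 72.4 FPKM in KO and 85.2 FPKM in WT cells at 5 days, and at 29.2 FPKM in KO and 66.0 FPKM in WT cells at 3 weeks, or 44.3% (41.2 to 47.6). Birc5, which makes the targeting subunit survivin, had 219.7 FPKM in KO and 237 FPKM in WT cells at 5 days, and 114 FPKM in KO and 213 FPKM in WT cells at 3 weeks. The scaffold Incenp had 114 FPKM in KO and 122 FPKM in WT cells at 5 days, and 60.3 FPKM in KO and 95.2 FPKM in WT cells at 3 weeks. The kinase RNA was thus lower than that of its partners relative to WT, with ratios of -1.15 for Aurkb, -0.89 for Birc5 and -0.65 for Incenp at 3 weeks. As a share of the summed FPKM of the 3 subunits, Aurkb made up 17.8% in KO and 19.2% in WT at 5 days, and 14.4% in KO and 17.6% in WT at 3 weeks.

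The spindle checkpoint genes were all at least 1.5-fold lower in KO cells at 3 weeks, 6 of 6 with their target Cdc20 (background 20.8%). None was 2-fold lower (background 8.19%). Mad2l1, which makes the Mad2 protein that binds Cdc20, stood at 54.8 FPKM in KO and 57.0 FPKM in WT cells at 5 days, and at 29.9 FPKM in KO and 58.2 FPKM in WT cells at 3 weeks. It was the single member that was highest in the WT 3-week library. Cdc20, the activator of the anaphase-promoting complex, had 92.5 FPKM in KO and 97.2 FPKM in WT cells at 5 days, and 45.8 FPKM in KO and 86.6 FPKM in WT cells at 3 weeks. Bub3, which brings Bub1 and BubR1 to kinetochores, had 69.2 FPKM in KO and 78.0 FPKM in WT cells at 5 days, and 47.5 FPKM in KO and 74.3 FPKM in WT cells at 3 weeks. Bub3 had the smallest difference of the role at 3 weeks, at -0.64. The kinases Bub1 and Ttk and the BubR1 gene Bub1b lay at -0.72, -0.76 and -0.77.

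The 4 subunits of the Ndc80 complex, the main microtubule coupler of the kinetochore, differed in size. Spc24 stood at 37.0 FPKM in KO and 43.1 FPKM in WT cells at 5 days, and at 14.7 FPKM in KO and 33.99 FPKM in WT cells at 3 weeks, or 43.2% (38.1 to 48.7). Ndc80 itself had 33.4 FPKM in KO and 35.9 FPKM in WT cells at 5 days, and 18.2 FPKM in KO and 26.7 FPKM in WT cells at 3 weeks, or 68.2% (62.3 to 74.6). Nuf2 was at 57.9% (53.9 to 62.2) and Spc25 at 64.5% (57.5 to 72.2) of the WT level at 3 weeks. The Spc24 interval thus lies below those of the other 3 subunits. Spc24 rested on 369 implied reads in the KO 3-week library, the fewest of any member in any library. Its share of the summed FPKM of the complex was 23.6% in KO and 24.9% in WT at 5 days, and 17.9% in KO and 24.1% in WT at 3 weeks.

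**Figure D3:**
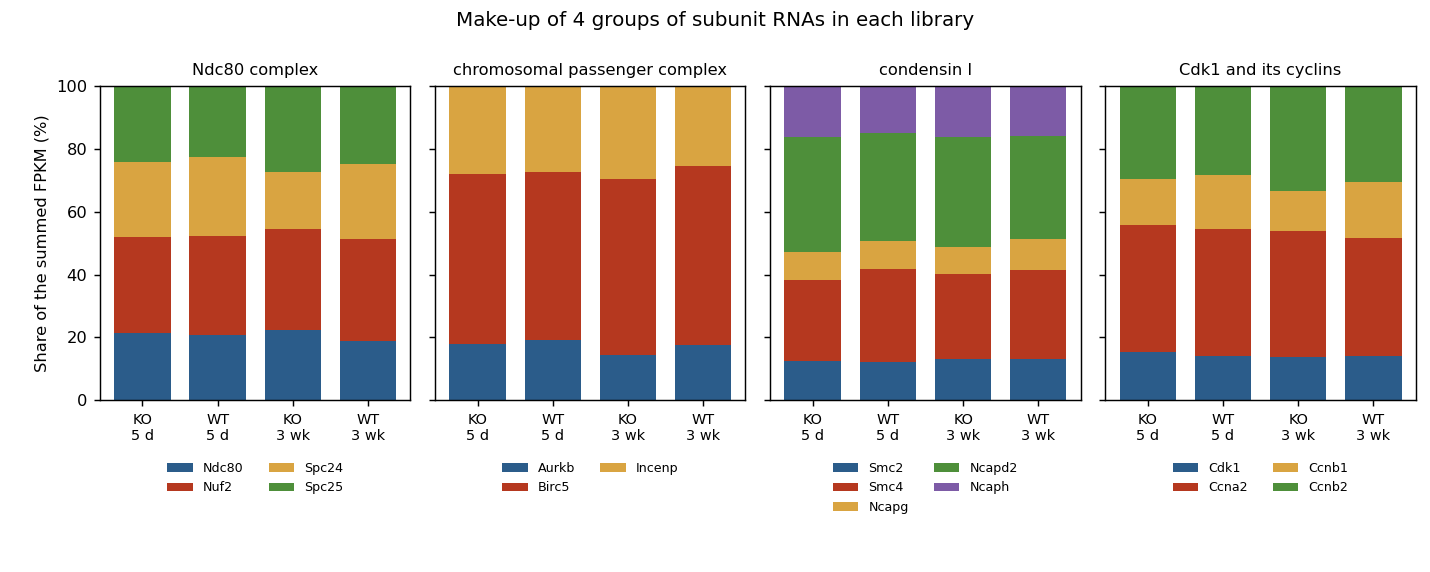
Share of the summed FPKM taken by each subunit RNA (stacked bars, percent) in the Ndc80 complex, the chromosomal passenger complex, condensin I and the group of Cdk1 and its cyclins, in each of the 4 libraries. Spc24, Aurkb and Ccnb1 take a smaller share in KO than in WT at 3 weeks (17.9% and 24.1%, 14.4% and 17.6%, 12.8% and 17.9%), while Smc4 of condensin I takes 26.9% in KO and 28.3% in WT at 3 weeks.

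Genes of the centromere and the outer kinetochore showed some of the smallest differences. Cenpa makes the histone H3 variant that marks the centromere and had 88.7 FPKM in KO and 96.4 FPKM in WT cells at 5 days. At 3 weeks Cenpa stood at 56.9 FPKM in KO and 70.003 FPKM in WT cells, or 81.3% (76.1 to 86.9), the highest percentage after Prc1. Cenpf, an outer kinetochore protein, had 16.4 FPKM in KO and 16.3 FPKM in WT cells at 5 days, and 10.1 FPKM in KO and 14.3 FPKM in WT cells at 3 weeks. The kinetochore motor Cenpe, at -0.63, was the only 1 of these 3 past 1.5-fold (background 20.8%).

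Among spindle motors and spindle assembly factors, Tpx2 stood out in size. Tpx2, which activates Aurora A and nucleates microtubules near chromosomes, had 68.8 FPKM in KO and 75.5 FPKM in WT cells at 5 days, and 34.4 FPKM in KO and 72.3 FPKM in WT cells at 3 weeks, or 47.5% (45.5 to 49.7). Kif11, the motor that pushes spindle poles apart, had 56.2 FPKM in KO and 55.3 FPKM in WT cells at 5 days, and 27.5 FPKM in KO and 40.01 FPKM in WT cells at 3 weeks, or 68.8% (65.5 to 72.2). Nusap1, a microtubule bundler, was at 37.6 FPKM in KO and 57.6 FPKM in WT cells at 3 weeks. The microtubule depolymerase Kif2c lay at -0.64, Nusap1 at -0.60 and the motor Kif20a, which acts late in mitosis, at -0.51. In this role 3 of 5 genes were at least 1.5-fold lower (background 20.8%), and Tpx2 alone was 2-fold lower (background 8.19%).

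Genes of the central spindle and cytokinesis, which act last in mitosis, included the exception. Prc1 makes the protein that crosslinks antiparallel microtubules of the central spindle. It stood at 79.1 FPKM in KO and 71.8 FPKM in WT cells at 5 days, and at 64.8 FPKM in KO and 57.2 FPKM in WT cells at 3 weeks. KO cells held 110.2% (106 to 115) of the WT level at 5 days and 113% (108 to 118) at 3 weeks, log2 ratios of 0.14 and 0.18. Prc1 thus had the highest ratio of the 42 at both times, and the genotypes kept nearly the same distance. Its promoter, printed above, holds a CCAAT box and a CHR element, as do those of Ccnb2, Cdc20 and Cenpa. Prc1 lies on chromosome 7 from 80294450 to 80316259 in mm10 and overlaps Rccd1 on the other strand. Rccd1 stood at 3.86 FPKM in KO and 3.58 FPKM in WT cells at 5 days, and at 5.29 FPKM in KO and 4.58 FPKM in WT cells at 3 weeks. The sources used here do not say whether the authors counted by strand, and its part in the Prc1 value was not tested.

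The partners of Prc1 in the central spindle were lower in KO cells. Kif4, the motor that carries Prc1 to microtubule ends, had 23.7 FPKM in KO and 26.5 FPKM in WT cells at 5 days, and 12.4 FPKM in KO and 20.4 FPKM in WT cells at 3 weeks. Racgap1 and Kif23 form centralspindlin, which brings the cytokinesis machinery to the midzone. Racgap1 had 39.9 FPKM in KO and 70.002 FPKM in WT cells at 3 weeks, or 57.0% (54.2 to 59.9). Kif23 had 22.7 FPKM in KO and 31.2 FPKM in WT cells at 3 weeks, or 72.8% (68.3 to 77.7). Ect2, the exchange factor that switches on RhoA at the cleavage site, lay at -0.51, and the contractile ring scaffold Anln at -0.42. Of the 6 genes of this role, Kif4 and Racgap1 were at least 1.5-fold lower at 3 weeks (background 20.8%).

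Condensin I, the ring complex that compacts chromosomes once the nuclear envelope is open, was lower in all 5 subunits. Smc4, an ATPase shared with condensin II, had 91.1 FPKM in KO and 121 FPKM in WT cells at 5 days, the lowest ratio of the 42 at that time at -0.40. At 3 weeks Smc4 stood at 47.9 FPKM in KO and 91.8 FPKM in WT cells. Ncapg had 31.5 FPKM in KO and 36.5 FPKM in WT cells at 5 days, and 15.2 FPKM in KO and 32.4 FPKM in WT cells at 3 weeks, or 46.9% (43.7 to 50.3). Smc2, Ncapd2 and Ncaph lay at -0.81, -0.77 and -0.81 at 3 weeks. All 5 were at least 1.5-fold lower (background 20.8%), and Ncapg was 2-fold lower (background 8.19%). The summed KO level was 0.868 of WT at 5 days and 0.548 at 3 weeks.

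Mki67 and Top2a are among the most abundant markers of cycling cells in the list. Mki67, which makes the chromosome coat protein Ki-67, had 175 FPKM in KO and 194 FPKM in WT cells at 5 days, and 78.4 FPKM in KO and 152 FPKM in WT cells at 3 weeks, or 51.6% (50.6 to 52.5). Top2a, the topoisomerase that untangles sister chromatids, had 201 FPKM in KO and 242 FPKM in WT cells at 5 days, and 76.9 FPKM in KO and 172 FPKM in WT cells at 3 weeks, or 44.7% (43.6 to 45.8). Both lay near the low end of the 42 at 3 weeks, at -0.95 and -1.15.

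Set beside each other by culture time, both genotypes had less of these RNAs after the longer culture, and KO cells had less by more. These comparisons share libraries with those between genotypes. In KO cells all 42 genes were lower at 3 weeks than at 5 days (background 56.8%), 15 of them at least 2-fold (background 4.39%) and 40 at least 1.5-fold (background 12.8%). The count of 15 was 6 with a pseudocount of 5, and 7 with median-of-ratios or upper-quartile scaling. The 3-week level was 51.1% of the 5-day level in the median of KO cells, between 38.2% (Top2a) and 81.9% (Prc1). In WT cells 41 genes were lower at 3 weeks (background 47.8%), none 2-fold (background 2.83%) and none 1.5-fold (background 6.67%). The median in WT cells was 80.8%, between 67.0% (Nusap1) and 102% (Mad2l1). The median log2 ratio was -0.93 in KO cells, against -0.06 for all compared genes, and -0.30 in WT cells, against 0.01.

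The log2 ratio of KO to WT at 3 weeks minus that at 5 days was below 0 in 41 of the 42 genes, where 57.4% of compared genes were. Its median was -0.59, against -0.08 for all compared genes. It passed 2-fold in Ccnb1, at -1.06 (background 4.70%), and 1.5-fold in 22 genes (background 15.0%). After Ccnb1 the lowest were Cdk1 and Spc24, both at -0.94. Cenpa at -0.18 and Prc1 at 0.04 were the highest. The cultures of the 2 times differ in restimulation and in the IL-4 antibody as well as in length, and these cannot be told apart.

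The remaining genes of mitosis were read from 6 further lists chosen by function. Together 118 of their genes were compared, and at 3 weeks 108 were lower in KO cells (background 55.8%), 57 at least 1.5-fold (background 20.8%) and 15 at least 2-fold (background 8.19%). None was 2-fold higher, and the median was -0.57. At 5 days 97 of the 118 were lower (background 53.6%), none 2-fold (background 0.82%), with a median of -0.11. The 42 genes and the wider machinery thus lay on the same side, and no list is a test of another, since all came from the same libraries.

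The inner kinetochore and Mis12 list was lower in 26 of 27 genes at 3 weeks (background 55.8%), with a median of -0.67. Cenpi had 5.28 FPKM in KO and 14.1 FPKM in WT cells at 3 weeks, and Cenpk had 8.87 FPKM in KO and 19.97 FPKM in WT cells. They were the 2 of 27 past 2-fold, a share no larger than the background of 8.19%. The exception was Zwint, which links the KNL1 scaffold to the checkpoint complex RZZ, at 30.5 FPKM in KO and 23.3 FPKM in WT cells. Of 17 cohesin and separase genes, 13 were lower (background 55.8%), with a median of -0.50. Shugoshin 1, listed as Sgol1, protects centromeric cohesin and was the single one of 17 past 2-fold, again no more than the background, at 7.64 FPKM in KO and 21.3 FPKM in WT cells. The cohesin loader Mau2 was highest of that list, at 0.27. All 3 genes specific to condensin II were lower (background 55.8%), from Ncapg2 at -0.70 to Ncapd3 at -0.30.

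The anaphase-promoting complex was lower in 16 of 17 genes (background 55.8%), with a median of -0.38 and none past 2-fold (background 8.19%). Its extremes were Ube2c, the ubiquitin-conjugating enzyme that works with it, at -0.95, and Anapc16 at 0.13. Of 16 other mitotic kinases, phosphatases and partners, 15 were lower (background 55.8%), with a median of -0.65. Cdc25a, the phosphatase that switches on cyclin-dependent kinases, stood at 6.19 FPKM in KO and 19.7 FPKM in WT cells at 3 weeks, a ratio of -1.52. The Cdk1 adaptors Cks2 and Cks1b lay at -1.39 and -1.07, and the phosphatase inhibitor gene Ensa was highest at 0.07.

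Of 38 other kinesin, tubulin, spindle and cytokinesis genes, 35 were lower in KO cells at 3 weeks (background 55.8%), with a median of -0.65. Past 2-fold were 9 of the 38 (background 8.19%). These 9 were Psrc1 (-1.45), Trip13 (-1.38), Tuba1b (-1.25), Gtse1 (-1.19), Kif15 (-1.17), Stmn1 (-1.15), Tuba1c (-1.09), Ran (-1.08) and Tubb4b (-1.02). Tuba1b and Tuba1c are near-identical copies, so their split is uncertain. Psrc1, a spindle protein, stood at 18.1 FPKM in KO and 51.4 FPKM in WT cells, and the checkpoint remodeller Trip13 at 8.59 FPKM in KO and 24.0 FPKM in WT cells. Higher in KO cells were Mad1l1, the checkpoint protein that recruits Mad2, at 31.2 FPKM in KO and 19.6 FPKM in WT, and the spindle pole organiser Numa1, at 66.1 FPKM in KO and 49.2 FPKM in WT. Fam64a, at 0.09, was the third gene above 0.

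**Figure D4:**
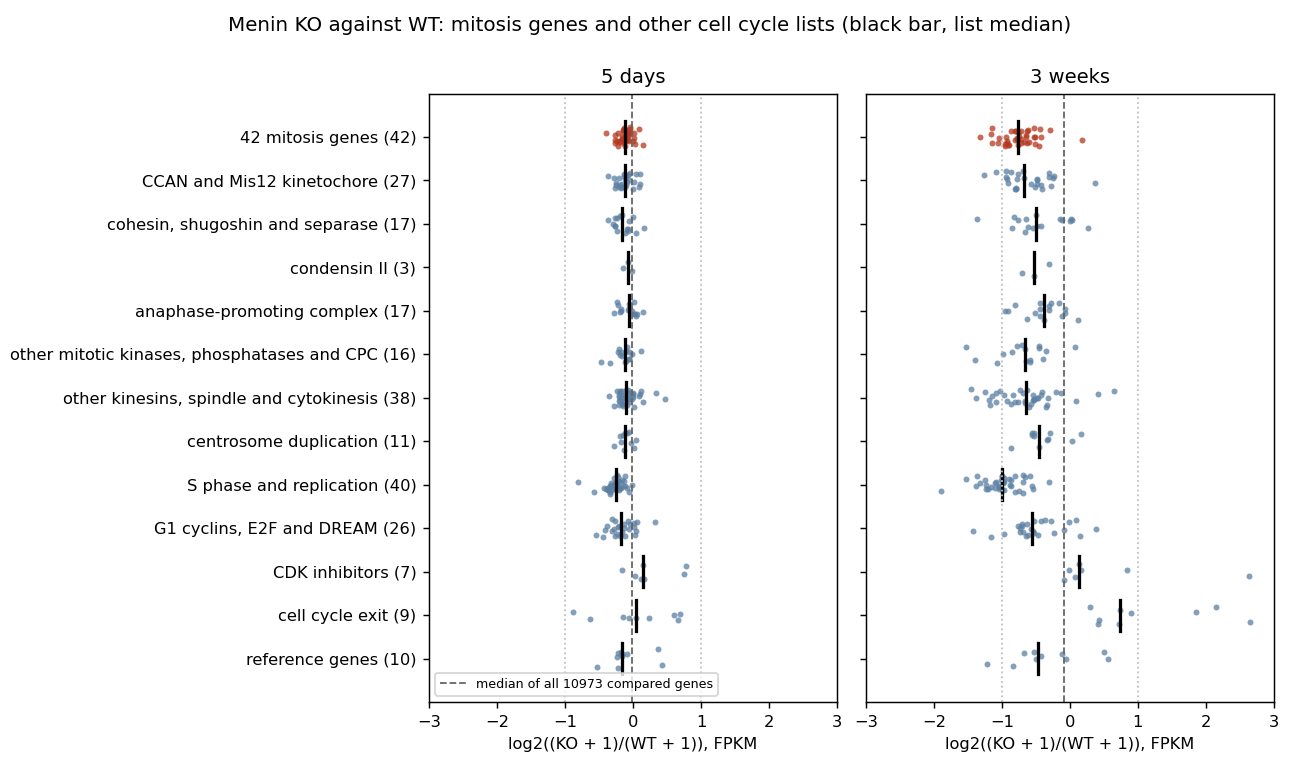
log2((KO + 1)/(WT + 1)) of FPKM for each compared gene (points) of the 42 mitosis genes and 12 other lists, at 5 days (left) and 3 weeks (right), with the list median as a black bar, the median of all compared genes as a dashed line and 2-fold as dotted lines. At 3 weeks the mitosis genes centre at -0.76 and the S phase list at -0.99, while the cell cycle exit list centres at 0.74.

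Genes of DNA replication had the lower median. All 40 genes of an S phase list were lower in KO cells at both times (background 42.8%). Their medians were -0.25 at 5 days and -0.99 at 3 weeks, and 17 were past 2-fold at 3 weeks (background 8.19%). That list ran from Orc1, a subunit of the origin recognition complex, at -1.89 to Gins4 at -0.30. Of 26 genes of G1 cyclins, E2F factors and the DREAM complex, 23 were lower at 3 weeks (background 55.8%), with a median of -0.56. Tfdp1, the partner of E2F factors, lay at -1.43 and Mybl2, which makes B-Myb, at -1.16, while the DREAM subunit Lin37 was highest at 0.38. Of 11 centrosome genes, 9 were lower (background 55.8%), from Nedd1 at -0.87 to Cep63 at 0.17, with a median of -0.46.

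Genes tied to leaving the cell cycle lay on the other side at 3 weeks. All 9 of that list were then higher in KO cells, where 4822 of the 10973 compared genes were. Their median was 0.74, with Foxo3 lowest at 0.29. At 5 days the list went both ways, with 5 above 0 and 4 below, a median of 0.05 and Klf2 lowest at -0.89. Of the 10973 compared genes, 5061 were above 0 at 5 days. Past 2-fold at 3 weeks (background 7.97%) were Pik3ip1, an inhibitor of PI3 kinase, at 74.99 FPKM in KO and 11.1 FPKM in WT cells, and the antiproliferative genes Btg2, at 96.7 FPKM in KO and 20.9 FPKM in WT, and Btg1, at 62.2 FPKM in KO and 16.5 FPKM in WT. Among 7 inhibitors of cyclin-dependent kinases, Cdkn2b alone was past 2-fold, at 20.7 FPKM in KO and 2.52 FPKM in WT cells. Cdkn1a was the lowest of them, at -0.08, and their median was 0.14.

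Markers of other cell types were read in the same libraries. Myeloid markers summed to 5.34 FPKM in KO and 0.818 FPKM in WT cells at 5 days, and to 15.8 FPKM in KO and 0.344 FPKM in WT cells at 3 weeks. Of these 6 markers Itgax made up the most, at 8.63 FPKM in KO and 0.0497 FPKM in WT at 3 weeks. Lyz2 was listed at 0 in that KO library and Csf1r was near 0 in all 4. The median of the 6 was 1.20 FPKM in KO and 0.0595 FPKM in WT at 3 weeks. The 2 that passed the minimum level were both at least 2-fold higher in KO cells then (background 7.97%). NK cell markers summed to 6.63 FPKM in KO and 0.308 FPKM in WT cells at 3 weeks, most of it Klrg1, which T cells can also express. At 3 weeks CD8 markers summed to 3.77 FPKM in KO and 2.04 FPKM in WT cells. The B cell markers then summed to 0.278 FPKM in KO and 0.155 FPKM in WT cells, with Ms4a1 at 0 in both. Erythroid markers summed to 1.59 FPKM in KO and 0.883 FPKM in WT cells at 3 weeks. At 5 days they summed to 3.58 FPKM in KO and 12.1 FPKM in WT cells. The other 5-day sums in KO and WT cells were 5.00 and 0.819 FPKM for NK, 5.70 and 4.38 FPKM for CD8, and 2.72 and 1.62 FPKM for B cell markers. The 4 T cell markers found summed to 1878 FPKM in KO and 949.9 FPKM in WT cells at 3 weeks. Of 7 Th2 markers, 6 were at least 2-fold lower in KO cells at 3 weeks (background 8.19%). Il13 was lowest at -2.40, with Il5 at -2.04, Il4 at -1.63, Il1rl1 at -1.33, Gata3 at -1.02, Ccr4 at -1.0045 and Il4ra highest at -0.42. At 5 days 5 of the 7 were above 0 in KO cells, with a median of 0.42, where 5061 of the 10973 compared genes were above 0. The part of any of these in the mitosis genes was not tested.

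Over the 42 genes, the 3-week ratio had a Pearson r of -0.24 and a Spearman rho of -0.29 with the log2 mean FPKM, or -0.34 for each without Prc1, so that more abundant RNAs had somewhat lower ratios. With the log2 transcript length its Pearson r was 0.09. Both are descriptions. The genes lie on 16 chromosomes, with 7 on the one that holds the most. In the annotation 16 of them overlap a gene on the other strand and 10 a gene on the same strand. The genes overlapped on the other strand included Exosc9 next to Ccna2, at 10.8 FPKM in KO and 22.3 FPKM in WT cells at 3 weeks, and Elovl1 next to Cdc20, at 44.8 FPKM in KO and 49.3 FPKM in WT.

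Promoters from RefSeq were matched for 34 of the 42 genes. Each covered 250 bases before to 50 bases after the start, taking the first listed start of each gene. Those not matched were Tpx2, Foxm1, Aurkb, Incenp, Smc4, Ccna2, Spc24 and Kif20a. A CHR match (TTTGAA or TTCGAA) was found in 26 of 34, or 76.5%, against 14.0% of the 7774 promoters of compared genes and 19.4% of all 27025 promoters. A CCAAT match was in 76.5% of the mitosis genes, against 39.7% of compared genes and 37.9% of all promoters. Both together were in 23 of 34, or 67.6%, against 6.11% of compared genes and 7.70% of all. The E2F letters counted were TTCCCGC, together with TTGGCGC, together with TTCGCGC, together with TTGCCGC. An E2F match was in 20.6% of the mitosis genes, against 18.3% of compared genes and 9.69% of all. Each motif was sought on both strands, and the E2F letters GCGCCAA overlap CCAAT letters in Ccnb1 and Ect2.

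In the printed stretches the CHR letters begin at base -18 from the start in Cdc20, -5 in Prc1, 5 in Ccnb2 and 17 in Cenpa, each with at least 1 CCAAT box before them. Over its whole matched promoter Top2a holds 4 CHR matches and 6 CCAAT boxes, the most of the printed genes. Ccnb1 holds CCAAT boxes at -99 and -67 and no match to these CHR letters in the window. Its printed stretch does hold TTTAAA after the CCAAT boxes, a spelling close to TTTGAA that was not counted. A gene without the counted letters is thus not shown to lack a CHR element. The median 3-week ratio was -0.72 for the 26 genes with CHR letters, between -1.15 and 0.18, and -0.85 for the 8 without, between -1.32 and -0.60. The 8 matched genes with the highest ratios, from Ndc80 at -0.53 to Prc1, all held CHR letters, as did 76.5% of all 34. That cut falls just before the first gene without them, Nusap1 at -0.60, so the count of 8 is a description only. For CCAAT it was -0.76 with and -0.70 without, and for E2F it was -0.86 with and -0.72 without. These splits were not tested. Nuf2, Nusap1, Mad2l1 and Birc5 held none of the 3 motifs. The Mad2l1 window ends at base 66535270 of chromosome 6, before the gene start annotated in GENCODE M21 at 66535390. Windows at other starts were not searched. A match describes letters only and is not evidence of a bound factor.

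**Figure D5:**
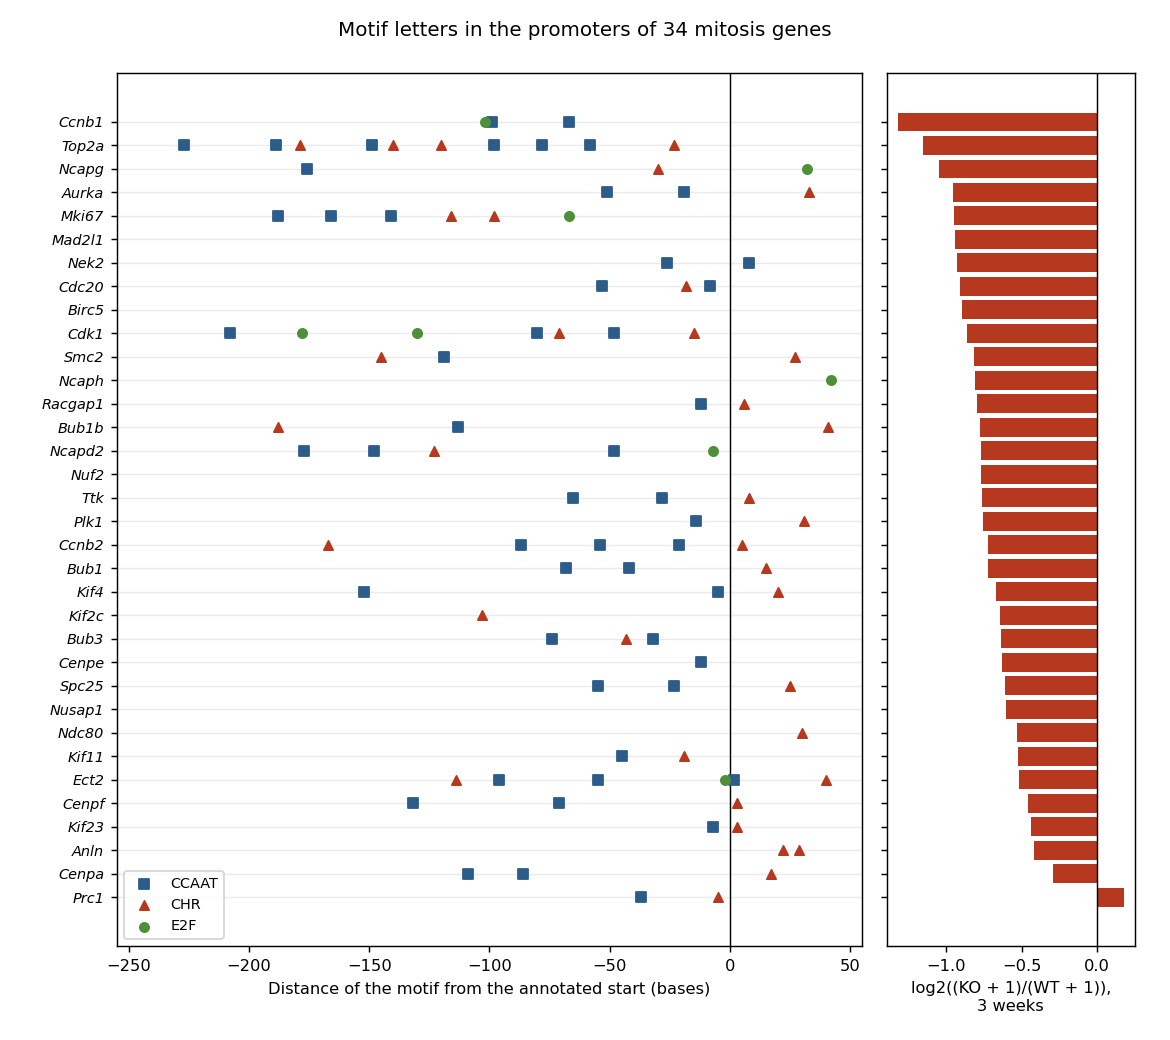
Left, distance of each CHR (red triangles), CCAAT (blue squares) and E2F (green circles) match from the annotated start in the promoters of 34 mitosis genes, in bases. Right, the log2 ratio of KO to WT at 3 weeks for the same genes, ordered from the lowest, Ccnb1, to the highest, Prc1. Genes with the CHR letters TTTGAA or TTCGAA lie between -1.15 and 0.18, and those without between -1.32 and -0.60. Other spellings were not counted.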

How the data were processed

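Total RNA was isolated with TRIzol, and a stranded TruSeq mRNA kit was used for the libraries, per the labels' protocols. The values deposited by the authors are FPKM for each gene symbol, made with Bowtie 0.12.8, TopHat 1.3.2 and Cufflinks 2.0.2 on the build mm10, per the submitters' processing notes. The sources used here do not give the annotation, filters or use of strand. Lines of the same symbol were summed, and 1 symbol with an error mark was left out.

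Genes with a mean of at least 1 FPKM were compared as log2((a + 1)/(b + 1)) and counted at 2-fold and 1.5-fold. Depth was estimated from whole-read steps in values under 5.5 reads, of which 56.5% to 59.7% lay within 0.05 of a whole number in the 4 libraries, against 10% for evenly spread values. The depth is thus approximate. Implied reads used the principal transcript length in GENCODE M21 less 200 bases. Groups hold 1 library each, so no test was made, and whether the libraries differ beyond culture or animal variation is unknown. The ratio and interval steps were run on simulated reads with counting error only, drawn at the estimated depths. That run did not test the depth estimate, the promoter search or variation between cultures. Python 3.11.15, numpy 2.4.6, pandas 2.3.3, scipy 1.17.1 and matplotlib 3.10.9 were used.

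The members and all gene lists were chosen with earlier results of these data known. Named genes were the 42 members, Men1, the highest and the lowest gene of each further list at 3 weeks, and genes of those lists past 2-fold between genotypes. The 17 S phase genes past 2-fold are given as a count. A few list genes that the rule names are not reported here. Of the listed symbols, 16 were not matched, among them all 9 mitochondrially encoded genes. Alternatives covered the pseudocount, the scaling, the filter on low values and symbols on several lines.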

Additional observations from a re-analysis of the deposited data

Results flagged for a closer look

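A gene is given here when its KO level was above the WT level at 1 culture time and below it at the other, and it is either 1 of the 42 mitosis genes or a compared list gene past 2-fold at 1 of the times. The difference between the times was not tested, because each group holds 1 library. Of the 42 mitosis genes, 4 met this: Cdk1, Ccnb2, Cenpf and Kif11 were above WT at 5 days and below WT at 3 weeks. Their log2 ratio at 3 weeks minus that at 5 days was -0.94 for Cdk1, -0.74 for Ccnb2, -0.47 for Cenpf and -0.55 for Kif11. Of these 4, the 5-day counting interval lay above equality for Cdk1 and included it for the others. Among marker genes, the same difference was -2.17 for Il4, -2.60 for Il5, -3.23 for Il13 and -1.75 for Il1rl1, which were higher in KO cells at 5 days and lower at 3 weeks. Hba-a1, a haemoglobin gene, ran the other way, at 1.61.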

How the results depend on the processing

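No paired analysis was possible because each group holds 1 library, and for the same reason no library could be left out. Scaling, a pseudocount of 0.1 or 5, a filter of 5 FPKM or none, and the highest line of a symbol were tried. Under every setting 41 of the 42 genes were below WT in KO cells at 3 weeks and Prc1 was above, at 0.17 to 0.31. A pseudocount cannot change the side of WT on which a gene lies. The filters could not remove a member, since the lowest member mean was 10.8 FPKM (Anln). The choice of line gave the same lowest and highest member ratios as the main setting. Only the scalings therefore bear on that split. At 5 days 37 were below, or 36 with upper-quartile scaling, where Kif23 was above. Members at least 2-fold lower in KO cells at 3 weeks numbered 6, but 4 with median-of-ratios or upper-quartile scaling and 3 with a pseudocount of 5. Those at least 2-fold lower at 3 weeks than at 5 days in KO cells numbered 15, but 6 with a pseudocount of 5, 7 with median-of-ratios scaling and 7 with upper-quartile scaling. The difference between the genotype ratios passed 2-fold in 1 gene, and in 0 with a pseudocount of 5 or upper-quartile scaling. Upper-quartile scaling set the 3-week median of the mitosis genes at -0.63 in place of -0.76, while it shifted the median of all compared genes by 0.12. Relative to all compared genes the median was -0.68, and -0.67 with that scaling. Over all compared genes at 3 weeks, 874 lay 2-fold or more above WT in KO cells and 899 below, against 1044 above and 678 below with upper-quartile scaling. The choice of line left the member counts as they were. The filters could not change them, since every member passed each filter. Depth limits little here, since every gene rested on at least 369 implied reads; the missing replicates limit every comparison.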
